A study of Arabidopsis thaliana with 8 samples.

Results

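The 10 genes of strigolactone synthesis and signalling CCD8, CCD7, MAX1, D27, D14, MAX2, SMXL6, SMXL7, SMXL8 and BRC1 were followed in leaf mRNA of wild-type Arabidopsis thaliana and of ABI3:MTA plants. They were picked by identifier from the 20690 genes listed in at least 1 of 8 libraries, and 9 of them were listed in every library. The list names the known pathway, but it was drawn up when the WT and mta values of these libraries, CCD8's among them, had already been seen. The values of the 10 genes in the 2 genotypes are therefore given as a description, without p-values. The groups were WT, the Col-0 accession with its own MTA gene, and mta, also Col-0, labelled ABI3:MTA. The MTA gene encodes an enzyme subunit that methylates adenosines inside mRNA (N6-methyladenosine). Plants lacking it die as embryos, and in ABI3:MTA plants MTA is expressed from the embryo-active ABI3 promoter, so that the adult plant survives with little of it. Each genotype had 4 libraries of poly(A) RNA from leaves 5 to 9 at an age of 4 weeks. Both were soil-grown at 22 °C in days of 16 h light and 8 h dark, and leaves were taken 4 h into the light period. Whether libraries of the same genotype came from different plants, and whether mta is a single line, is not in the labels. The p-values given for other genes thus reflect no more than the spread among these libraries, and that spread may be technical.

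Strigolactones are carotenoid-derived hormones that restrain shoot branching and promote leaf senescence. In plastids D27 isomerises beta-carotene, and the dioxygenases CCD7 and CCD8 cleave it in turn to carlactone, which the cytochrome P450 MAX1 oxidises. The hormone binds D14, an alpha/beta-hydrolase that is both receptor and enzyme. D14 then joins the F-box protein MAX2 to mark the repressors SMXL6, SMXL7 and SMXL8 for degradation. Removal of these repressors releases target genes such as BRC1, a TCP transcription factor gene that holds axillary buds dormant. In Arabidopsis SMXL6 is also known to bind DNA and to repress the SMXL6, SMXL7 and SMXL8 genes themselves, and genes of strigolactone synthesis are known to be under feedback from signalling.

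The promoter sequences of 3 members are shown because CCD8 and SMXL8 had the largest differences between the genotypes among the members and SMXL7, the most abundant of the related repressor genes, was the member with the motif described for SMXL6. Each is the 250 bases before the annotated start of the gene, read 5′ to 3′ on the gene's strand from the RefSeq TAIR10.1 assembly. Capitals mark matches, on either strand, to ATAACAA, the motif described for SMXL6, to the TCP motif GGNCCC, to the auxin response motif TGTCTC or to the PHR1 phosphate starvation motif GNATATNC. The CCD8 stretch is chr4:15827978-15828227, plus strand, that of SMXL7 is chr2:12775958-12776207, plus strand, and that of SMXL8 is chr2:16765459-16765708, plus strand.
CCD8: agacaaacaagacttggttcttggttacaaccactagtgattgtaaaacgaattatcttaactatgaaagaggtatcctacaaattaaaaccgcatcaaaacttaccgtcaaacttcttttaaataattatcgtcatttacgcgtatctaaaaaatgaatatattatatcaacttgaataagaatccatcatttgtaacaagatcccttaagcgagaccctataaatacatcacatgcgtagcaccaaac
SMXL7: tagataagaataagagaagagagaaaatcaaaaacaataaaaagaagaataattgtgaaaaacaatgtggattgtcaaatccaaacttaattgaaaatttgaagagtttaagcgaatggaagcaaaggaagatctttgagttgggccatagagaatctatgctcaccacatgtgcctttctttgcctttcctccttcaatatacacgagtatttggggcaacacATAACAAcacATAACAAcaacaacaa
SMXL8: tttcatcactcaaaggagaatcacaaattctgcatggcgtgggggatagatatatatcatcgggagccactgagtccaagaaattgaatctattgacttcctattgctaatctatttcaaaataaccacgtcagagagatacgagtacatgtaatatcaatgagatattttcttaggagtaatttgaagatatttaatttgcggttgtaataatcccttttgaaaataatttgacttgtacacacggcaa
SMXL7 held ATAACAA at -26 to -20 and at -16 to -10 from its start, and a further copy at 33 to 39 in the window searched, which ran from 250 bases before to 50 bases after the start. Of 27443 protein-coding genes, 13.5% had this motif in the same 300-base window, and among the 10 members SMXL7 was the only gene that did. TGTCTC was found in 14.2% of all windows and in 1 member, D27, whose match lies at -53 to -48. GGNCCC (8.68% of all windows) and GNATATNC (6.25%) were found in none of the 10. The windows shown for CCD8 and SMXL8 thus hold none of the 4 motifs.

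Values are normalised read counts, that is, gene values scaled by the authors for each library and then rescaled here so that the libraries are comparable. Groups are given as mean ± SD with n = 4 libraries, and log2 fold changes are mta minus WT with their standard error. The libraries listed 19204 to 19716 genes each. Taking 1 step of the deposited scale as 1 read, the gene totals were 17132914 to 25377222 reads per library. MTA itself was at 72.4 ± 8.29 in WT and 51.1 ± 10.6 in mta (log2 fold change -0.51, limma adjusted p = 0.0319), a call that was lost in 7 of 19 alternative settings, among them the fits without WT 2, WT 3, WT 4 or mta 1 (adjusted p of 0.0563 to 0.0962). The mta mean of MTA was thus 0.71 of the WT mean, so these RNA values do not show the low MTA level stated above. The libraries differed along transcript length within both genotypes. Spearman's rho across genes between a library's deviation from the mean of all libraries and transcript length was -0.35 in WT 1, 0.35 in WT 2, 0.38 in WT 3 and 0.04 in WT 4, and -0.39 in mta 1, -0.08 in mta 2, -0.27 in mta 3 and 0.36 in mta 4. The 7 mesophyll markers were listed in every library, which goes with the leaf label but cannot tell leaves from other green tissue. Their summed level was 233398 to 287064 in WT and 307244 to 508876 in mta, with RBCS1A, at means of 134608 and 252328, its largest part. By limma RBCS1A rose, GLDP1 fell (log2 fold change -0.77, adjusted p = 0.000979) and 5 did not pass. All 10 vasculature markers were listed, with sums of 4039 to 4478 in WT and 5410 to 5974 in mta. PP2-A1, at means of 1479 and 2242, was the largest part of these sums. By limma 5 of the 10 rose, 1 (HB8) fell and 4 did not pass. Sums of the 8 epidermis and guard cell markers overlapped, at 2905 to 3002 and 2592 to 3058, with FDH and CER5 their largest parts, while 3 of the 8 (PDF1, FAMA and MYB60) rose and 0 fell by limma.

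Among the synthesis genes, CCD8 (AT4G32810) stood apart. CCD8, the second of the cleavage dioxygenases, had normalised read counts of 81.6, 73.4, 63.3 and 70.8 in WT 1 to 4 and of 16.4, 15.2, 15.1 and 21.0 in mta 1 to 4. The genotypes did not overlap, and the lowest WT library was above the highest mta library by more than the whole range of either genotype. The means were 72.3 ± 7.54 and 16.9 ± 2.77, a level 4.27 times higher in WT, with a log2 fold change of -2.04 ± 0.14 (SE). By log2 fold change CCD8 ranked 13th from the lowest of 18328 tested genes. This rank is a description only, as CCD8 was chosen with its values in both genotypes known. In bulk leaves, fewer cells that express a gene and less of its RNA per cell cannot be told apart.

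CCD7 (AT2G44990), the dioxygenase that acts just before CCD8, was close to the lower limit of the files, which list no value below 1. It was listed in 3 of 4 WT libraries, at deposited values of 1.26, 1.10 and 1.76 in WT 1, WT 2 and WT 4, and in 1 of 4 mta libraries, at 1.04 in mta 2. These values were too low for the test between genotypes, so the steps of the pathway on either side of CCD8 could be compared only through MAX1 and D27.

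MAX1 (AT2G26170), the P450 gene downstream of CCD8, was at 43.2, 38.9, 40.9 and 42.4 in WT and at 40.4, 49.7, 50.7 and 47.3 in mta. Library mta 1 lay inside the WT range and the others above it. The log2 fold change was 0.18 ± 0.11 (SE). D27 (AT1G03055), the isomerase gene at the head of the pathway, was at 11.1, 18.9, 18.8 and 16.2 in WT and at 11.8, 18.3, 11.2 and 15.6 in mta. The genotypes covered nearly the same range (log2 fold change -0.18 ± 0.21). CCD8, MAX1 and D27 each overlap a protein-coding gene on the opposite strand. The libraries were strand-specific, but the strand setting of the counting is not given in the sources used here, so reads of such pairs may not be fully told apart. The gene overlapping CCD8, AT4G32820, was at 54.6 ± 15.9 in WT and 44.8 ± 21.0 in mta, with overlapping genotypes.

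The receptor gene D14 (AT3G03990) had the higher mean in mta, with overlapping genotypes. Its normalised read counts were 286.8, 205.3, 201.7 and 214.3 in WT and 405.1, 286.8, 337.8 and 246.1 in mta. WT 2, WT 3 and WT 4 were below every mta library, while WT 1 was about level with mta 2 and above mta 4. The means were 227.0 ± 40.2 and 319.0 ± 68.6, and the log2 fold change was 0.48 ± 0.16 (SE). Over 19 alternative settings that value lay between 0.33 and 0.63. WT 1 and mta 1, the highest library of each genotype for D14, were also those with the most negative trend along transcript length. After a correction for that trend the log2 fold change of D14 was 0.47. The vasculature marker sums, given above and with PP2-A1 as their largest part, were higher in mta as well, although the marker HB8 fell. The part of these sums in the D14 values was not tested.

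MAX2 (AT2G42620), the F-box gene shared by strigolactone and karrikin signalling, was at 240.1, 231.3, 234.0 and 225.8 in WT and at 277.3, 294.9, 310.2 and 235.9 in mta. Library mta 4 was inside the WT range and the other mta libraries were above it. The log2 fold change was 0.26 ± 0.10 (SE), and 0.34 without mta 4. With the authors' scaling alone it was 0.11, in a fit where the median over all tested genes was -0.16.

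**Figure D1:**
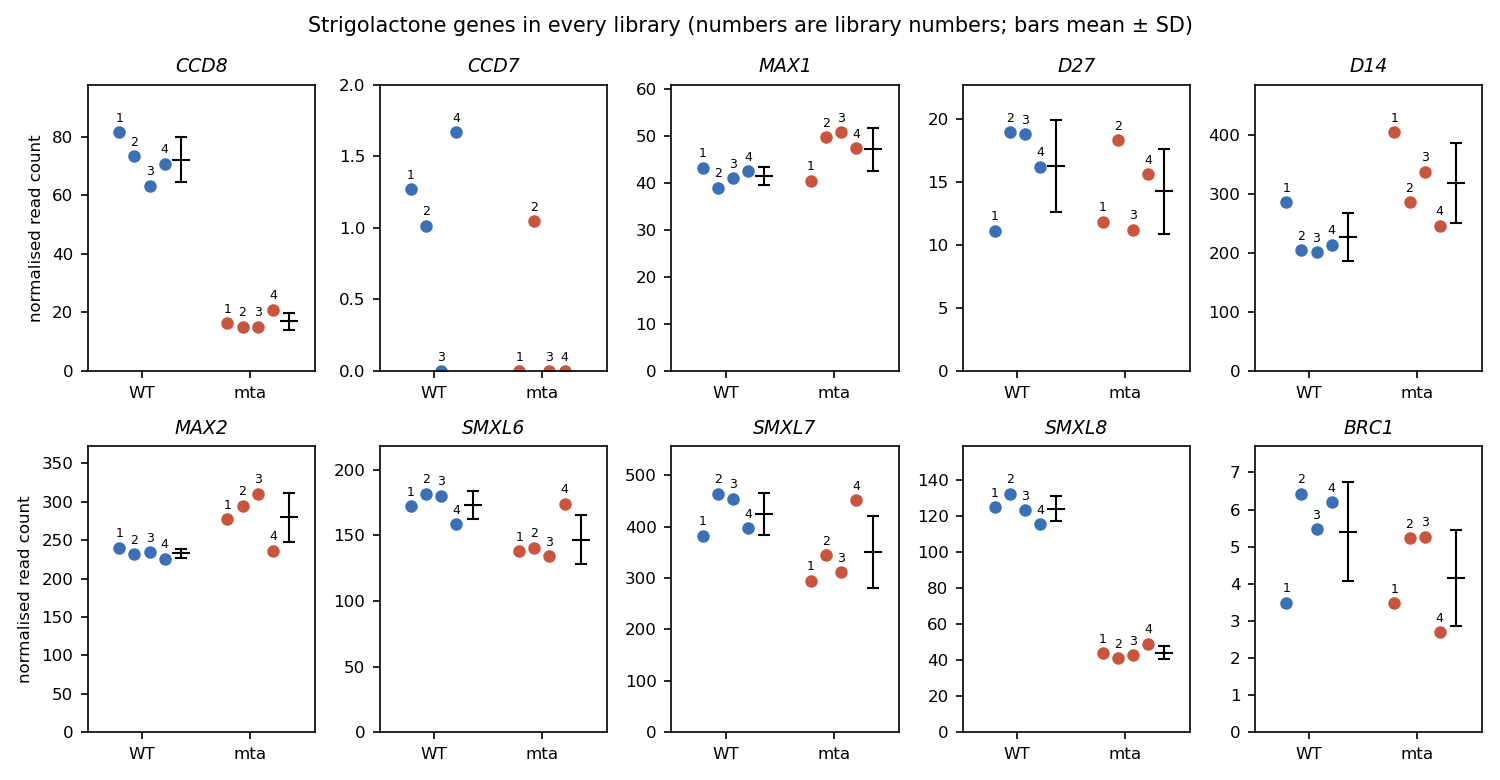
Normalised read count (vertical axis, from 0) of the 10 genes in each WT (blue) and mta (red) library; small numbers are library numbers, black bars the mean ± SD of 4 libraries (not drawn for CCD7, where points at 0 are libraries that do not list the gene). CCD8, at 63.3 to 81.6 in WT and 15.1 to 21.0 in mta, and SMXL8, at 115.6 to 132.6 and 41.1 to 49.2, are the panels in which the genotypes are far apart, while library mta 4 departs from the other mta libraries for MAX2, SMXL6 and SMXL7.

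The repressor genes split. SMXL8 (AT2G40130) had normalised read counts of 125.1, 132.6, 123.5 and 115.6 in WT and of 43.9, 41.1, 42.8 and 49.2 in mta. The genotypes did not overlap and libraries within a genotype lay close together. The means were 124.2 ± 6.95 and 44.3 ± 3.51, a level 2.81 times higher in WT, with a log2 fold change of -1.47 ± 0.10 (SE). An annotated long non-coding RNA, AT2G09115, overlaps SMXL8 on the opposite strand.

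SMXL6 (AT1G07200), which encodes a repressor with the same role, was at 172.1, 181.6, 180.1 and 158.5 in WT and at 137.9, 140.5, 134.0 and 174.0 in mta. Libraries mta 1 to 3 were below every WT library and mta 4 was inside the WT range. SMXL7 (AT2G29970), the third repressor gene of this group, was at 382.0, 463.7, 454.0 and 397.0 in WT and at 294.7, 343.8, 311.2 and 451.4 in mta, again with mta 4 alone inside the WT range. The log2 fold changes were -0.24 ± 0.11 for SMXL6 and -0.29 ± 0.14 for SMXL7. These genes have the longest transcripts of the 10, and mta 4 was the mta library in which long transcripts were relatively high. The log2 fold changes without mta 4 were -0.33 and -0.42, and after the correction for transcript length -0.13 and -0.19. For SMXL8, of similar length, they were -1.52 and -1.39. The part of transcript length in the mta 4 values was not tested.

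Within each library the 3 repressor genes can be compared per kb of transcript, which does not depend on how libraries are scaled. SMXL8 made up 20.7, 19.1, 18.3 and 19.3% of their summed level per kb in WT 1 to 4 and 10.5, 8.91, 9.98 and 8.31% in mta 1 to 4. The share of SMXL7 was 58.1 ± 1.71% in WT and 64.7 ± 2.22% in mta, and that of SMXL6 22.5 ± 0.828% and 25.9 ± 1.25%. The share of SMXL8 was thus lower in every mta library, mta 4 included, than in any WT library. The sum itself was 183.9 to 213.1 per kb in WT and 128.8 to 182.2 in mta.

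**Figure D2:**
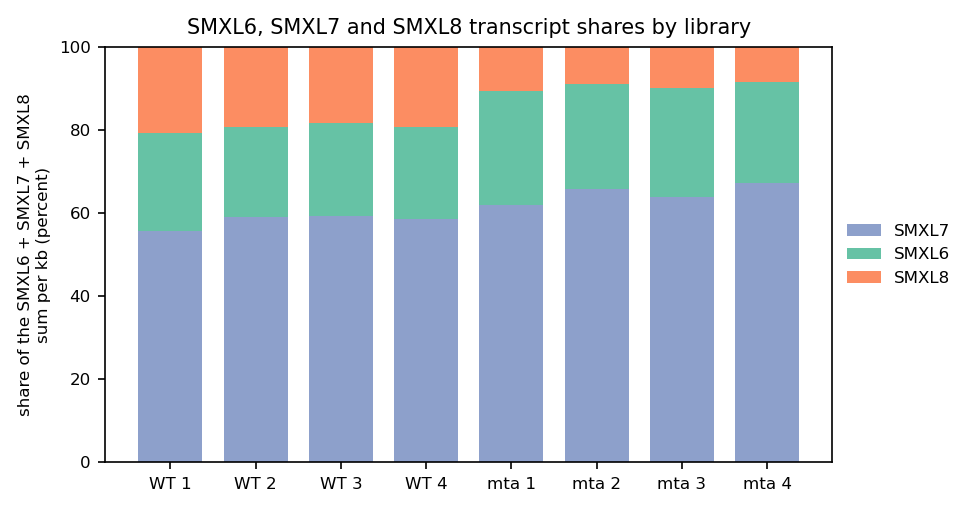
Share (percent) of SMXL7, SMXL6 and SMXL8 in the sum of their normalised read counts per kb of transcript, 1 bar for each library. The SMXL8 share is 18.3 to 20.7% in the 4 WT libraries and 8.31 to 10.5% in the 4 mta libraries.

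BRC1 (AT3G18550), the target gene that acts in axillary buds, was barely present in these leaves. It was at 3.49, 6.43, 5.47 and 6.20 in WT and at 3.48, 5.23, 5.27 and 2.69 in mta, with overlapping genotypes (log2 fold change -0.32 ± 0.26). Of 8 meristem and axillary bud markers, WUS, CLV3, CUC2 and LAS were listed in no library, and the sum of all 8 was 3.91 to 9.06 in WT and 2.79 to 5.27 in mta. At deposited values equal to 10 to 26 steps, only a large difference in BRC1 could have been detected.

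Compared per kb of transcript in WT, the members ranked D14 (136.8 ± 24.2 normalised read counts per kb), SMXL7 (115.0 ± 11.0), MAX2 (97.0 ± 2.48), SMXL6 (44.4 ± 2.71), SMXL8 (38.2 ± 2.14), CCD8 (34.4 ± 3.58), MAX1 (22.9 ± 1.05), D27 (15.0 ± 3.37) and BRC1 (2.43 ± 0.600). D14 and SMXL7, and SMXL8 and CCD8, did not differ by more than their SDs, whereas the other neighbours in this order did. D14 and SMXL7 thus headed the list, SMXL7 being above D14 in WT 2 and WT 3, and the synthesis genes lay in its lower part. D14 lay above 76.7% of all tested genes, CCD8 above 42.8% and BRC1 above 3.73%. In mta the order was D14 (192.3 ± 41.3), MAX2 (116.5 ± 13.4), SMXL7 (95.0 ± 19.1), SMXL6 (37.6 ± 4.74), MAX1 (26.1 ± 2.58), SMXL8 (13.6 ± 1.08), D27 (13.2 ± 3.09), CCD8 (8.04 ± 1.32) and BRC1 (1.88 ± 0.581). In mta the neighbours within their SDs were MAX2 and SMXL7, and SMXL8 and D27. CCD8 and SMXL8, both above MAX1 in WT, were both below it in mta.

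**Figure D3:**
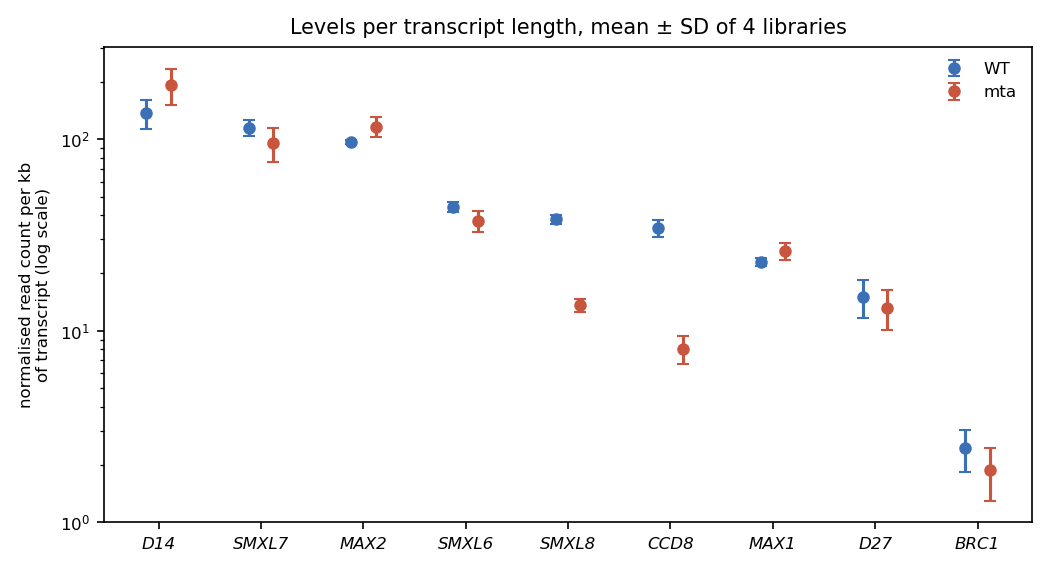
Normalised read count per kb of transcript (log axis) of the 9 members listed in every library, ordered by their WT level; points are means and bars the SD of 4 WT (blue) or 4 mta (red) libraries. The level per kb runs from 136.8 for D14 to 2.43 for BRC1 in WT, and CCD8 (34.4 in WT, 8.04 in mta) and SMXL8 (38.2 and 13.6) both pass from above MAX1 to below it.

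In the limma fit over all 18328 tested genes, 2 of the 9 tested members, CCD8 and SMXL8, passed an adjusted p of 0.05 as lower in mta and 0 as higher. Of all tested genes 12.9% passed as lower, 13.4% as higher and 26.3% in either direction. Without adjustment, 3 members were below 0.05 as lower and 2 as higher. The genotypes did not overlap for the same 2 members, and for 28.3% of all tested genes. The median log2 fold change was -0.24 over the 9 members and -0.01 over all tested genes. Because the members were chosen with this contrast known, nothing is read from these counts. Without mta 2, 3194 genes passed in all, against 4818 with every library. Over 19 alternative settings the log2 fold change was -2.18 to -1.87 for CCD8 and -1.62 to -1.39 for SMXL8, values from the same libraries. The member counts moved in several settings, up to 4 lower and 3 higher without WT 1, mta 1 and mta 4. There SMXL6 and SMXL7 also passed as lower and MAX1, MAX2 and D14 as higher. The libraries kept in that fit had rho with transcript length of 0.35, 0.38 and 0.04 in WT and of -0.08 and -0.27 in mta. The trend along transcript length thus went with genotype in that fit, and its part in these calls was not tested. Without mta 4 alone, 4 were lower and 2 higher (MAX2 and D14), and without WT 1 alone D14 was higher.

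Genes outside the 10 were compared next, in 6 lists picked by function: 52 genes, of which 46 were tested. Here the test is that of the same limma fit, adjusted over all tested genes. These lists too were chosen with earlier results of these data known, so their p-values cannot be taken as independent tests. In the 6 lists 6 genes rose, 12 fell and 28 did not pass, beside 13.4% higher and 12.9% lower among all tested genes. The counts of single lists are to be read against the same shares.

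The first list joined 5 enzyme genes assigned to strigolactone modification or breakdown with 2 genes annotated as beta-carotene isomerase D27. Of these 7, 3 rose, 2 fell and 2 did not pass, and AT1G64680, 1 of the genes that fell, carries the D27 annotation. LBO, an oxidoreductase gene that acts downstream of MAX1, rose from 7.62 to 13.2 over the WT libraries to 15.6 to 24.4 over the mta libraries (log2 fold change 0.78 ± 0.21, adjusted p = 0.0187). All 4 mta libraries were above all 4 WT libraries, but the call was lost without mta 1 or without mta 3 (adjusted p of 0.0525 to 0.0611). AT4G36470, annotated as an S-adenosyl-L-methionine-dependent methyltransferase, rose from 29.5 ± 1.48 to 48.4 ± 6.18 (0.69 ± 0.12, adjusted p = 0.00234), again with no overlap. CXE20, a carboxylesterase gene, rose from 24.0 ± 5.45 to 42.9 ± 8.37 (0.82 ± 0.19, adjusted p = 0.00915), with WT 1 just above mta 4. AT1G64680 fell from 773.4 ± 115.6 to 571.3 ± 26.3 (-0.43 ± 0.11, adjusted p = 0.0147). A further gene, singled out once its value was known, was the alpha/beta-hydrolase gene AT5G06570, which fell from 58.4 ± 2.46 to 38.2 ± 11.3. Its call was lost without WT 2, WT 3, WT 4 or mta 2 (adjusted p of 0.0662 to 0.0817). Over the list the median was -0.26 on the log2 scale, but it was positive (0.15 to 0.23) without WT 1, WT 2, WT 3 or mta 4, where the low gene CYP722A1 dropped below the filter.

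In the karrikin branch, which shares MAX2 and uses the D14 relative KAI2, and among the other SMXL genes, 0 of 9 genes passed in either direction by limma. Without adjustment, 2 were below 0.05 as lower and 0 as higher. The median was -0.09. KAI2 was at 608.7 ± 59.2 in WT and 599.4 ± 105.9 in mta, and SMAX1, the repressor gene of this branch, at 2141 ± 169 and 2108 ± 214. The gene with the smallest adjusted p was SMXL2, at 422.3 ± 32.0 and 350.7 ± 44.6 (log2 fold change -0.27 ± 0.11, adjusted p = 0.0856). SMXL2 passed as lower without mta 4 (adjusted p = 0.0117). BBX20 and KUF1, an F-box gene induced by karrikins, were singled out once their values were known. Without mta 1 BBX20 passed as lower (adjusted p = 0.0368), and without mta 4 KUF1 passed as higher (adjusted p = 0.0175).

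Of 9 genes for the SCF ligase core around MAX2 and for the TOPLESS family, the co-repressors that SMXL proteins recruit, 2 fell and 0 rose by limma, with the same counts when no adjustment was made. ASK2, an SKP1-type subunit, fell from 520.4 ± 64.0 to 366.1 ± 50.4 (log2 fold change -0.51 ± 0.12, adjusted p = 0.0121), and RBX1, the RING subunit, from 125.2 ± 13.7 to 93.9 ± 14.9 (-0.42 ± 0.13, adjusted p = 0.0380). The RBX1 call was lost without WT 2, WT 4, mta 2, mta 3 or mta 4 (adjusted p of 0.0526 to 0.121). The co-repressor gene TPL was at 337.3 ± 57.2 and 356.7 ± 20.8. The median of the list was -0.12.

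Of 14 genes of carotenoid synthesis, which supplies the precursor of strigolactones, 5 fell, 2 rose and 7 did not pass (median -0.20). PDS, phytoene desaturase, fell from 682.2 ± 34.6 to 471.4 ± 42.8 (log2 fold change -0.54 ± 0.09, adjusted p = 0.00191) and ZEP, zeaxanthin epoxidase, from 3312 ± 234 to 2500 ± 155 (-0.41 ± 0.09, adjusted p = 0.00916). LUT5, a carotene hydroxylase of the P450 family, was lower by -0.30 ± 0.09 (adjusted p = 0.0335), and BCH2, a beta-carotene hydroxylase, higher by 0.40 ± 0.12 (adjusted p = 0.0341). Both calls were lost in 9 of 19 settings, LUT5 when any library but WT 1 or mta 4 was left out (adjusted p of 0.0558 to 0.105) and BCH2 without any 1 WT library, mta 1 or mta 2 (0.0643 to 0.101). The number of carotenoid genes lower was 2 without WT 2, WT 3, WT 4, mta 2 or mta 3, 3 without mta 1 and 8 with the authors' scaling. With the authors' scaling 0 were higher, as they were without any 1 WT library or mta 2, and 1 was higher without mta 1 or mta 3.

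Among the other carotenoid cleavage dioxygenases, 4 of 7 were tested, and 2 fell and 0 rose by limma, with the same counts when no adjustment was made (median -0.37). NCED3, which makes the abscisic acid precursor under drought, fell from 244.2 ± 5.47 to 131.0 ± 23.8 (log2 fold change -0.91 ± 0.13, adjusted p = 0.000514). CCD1, which makes apocarotenoid volatiles, fell from 1885 ± 187 to 1319 ± 94.8 (-0.51 ± 0.10, adjusted p = 0.00390). In neither gene did the genotypes overlap. CCD4, a carotenoid-degrading enzyme of leaves and petals, was at 6333 ± 343 and 5504 ± 1142 and did not pass.

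Of 6 genes that lie downstream of SMXL6 or BRC1 or are close relatives of BRC1, 3 were tested. TCP1, a TCP factor gene that SMXL6 is known to repress in Arabidopsis, was at 31.1, 36.2, 28.1 and 36.0 in WT and at 8.36, 11.3, 9.55 and 8.61 in mta. The means were 32.9 ± 3.92 and 9.44 ± 1.31, and TCP1 fell by 1.70 ± 0.15 on the log2 scale (limma adjusted p = 2.82e-05), past the threshold in all 19 alternative settings. MYB75, an anthocyanin activator also known as a target of SMXL6, went the other way, from 45.9 ± 5.81 to 80.3 ± 12.7 (log2 fold change 0.79 ± 0.14, adjusted p = 0.00245). BRC2, the relative of BRC1, was at 3.21 ± 0.885 and 4.34 ± 0.618 and did not pass. The BRC1 target genes HB21, HB40 and HB53 were listed in 4, 1 and 6 of 8 libraries, at 3.04 or less, and were not tested. Thus TCP1 and MYB75, the 2 genes of this list known as SMXL6 targets, changed in opposite directions. The SMXL6, SMXL7 and SMXL8 genes, which SMXL6 is also known to repress, are described above.

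**Figure D4:**
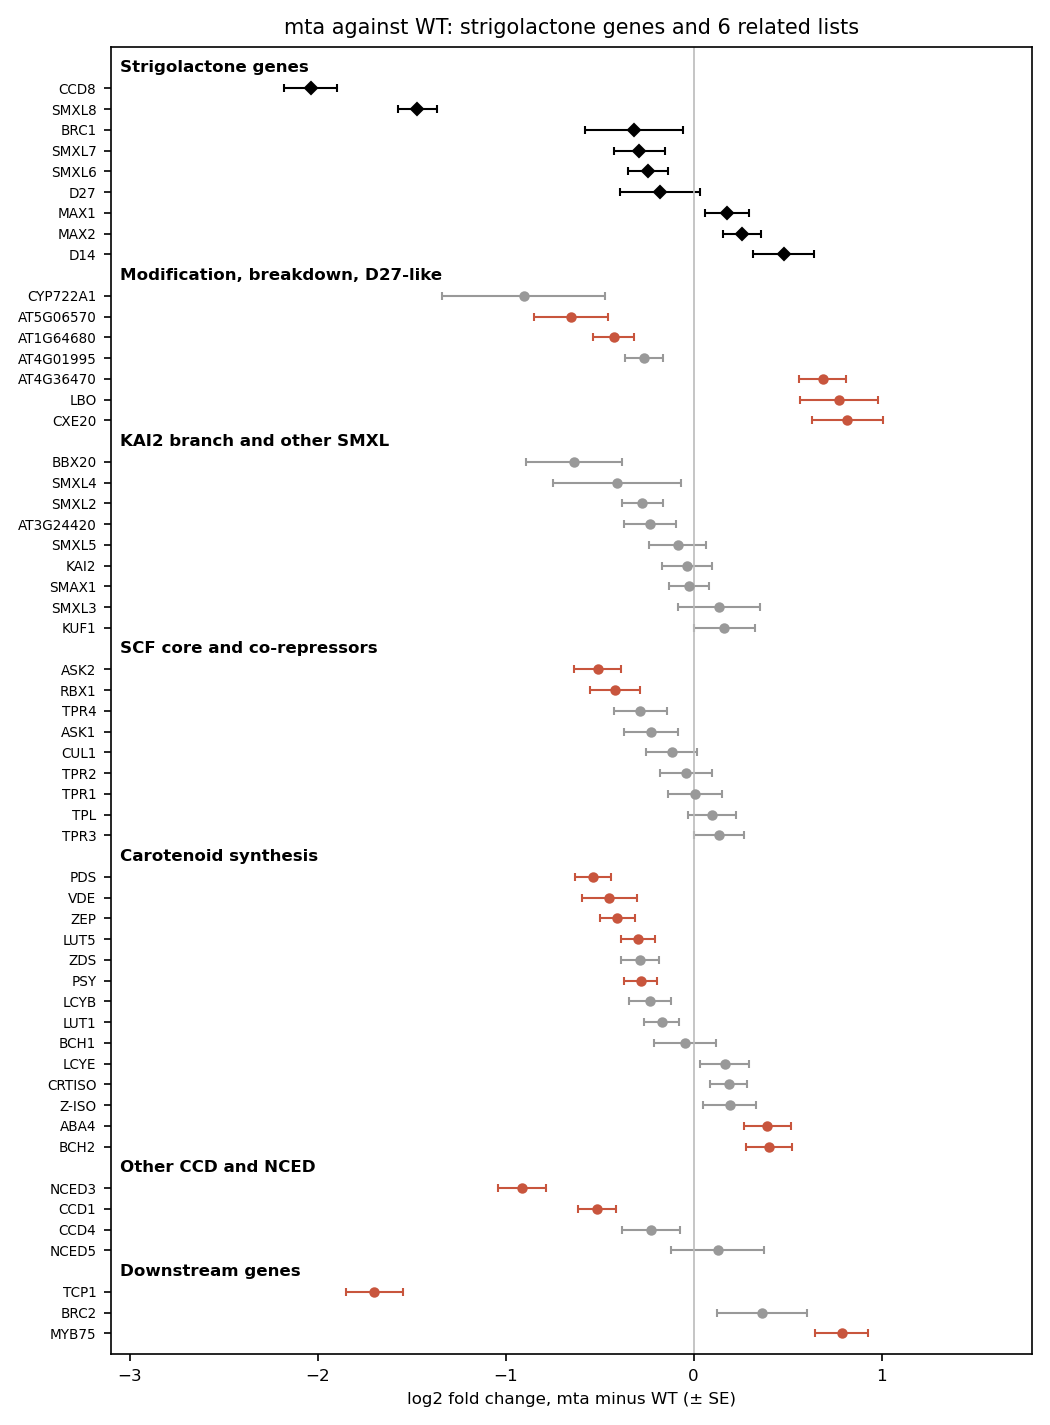
log2 fold change, mta minus WT, with its standard error (horizontal axis) for the 9 tested strigolactone genes (black diamonds, given without a test) and the tested genes of 6 related lists (red, past a limma adjusted p of 0.05; grey, not past it). CCD8 at -2.04, TCP1 at -1.70 and SMXL8 at -1.47 lie farthest from 0, and no gene of the KAI2 branch list is red.

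The genes that lie next to the members on the chromosome were examined after the members' values were seen. Of the 20 nearest protein-coding neighbours, 15 were tested, and by limma 3 fell and 1 rose, a share of those tested near the 26.3% of all genes. CZF1, a CCCH-type zinc finger gene just downstream of SMXL8 on the same strand, fell from 946.2 ± 45.1 to 618.6 ± 60.1 (log2 fold change -0.62 ± 0.10, adjusted p = 0.000942), with no overlap of the genotypes. The gene on the other side of SMXL8, AT2G40120, was at 15.4 ± 0.974 and 12.5 ± 1.28 and did not pass. Neither neighbour of CCD8 passed. AT4G32800, before CCD8, was at 170.8 ± 12.8 in WT and 215.9 ± 42.6 in mta, and AT4G32820, after it, is the overlapping gene described above. AT3G04000, next to D14 on the same strand, rose from 28.6 ± 7.63 to 46.9 ± 6.23 (adjusted p = 0.0122). LSH10 beside MAX2 and AT3G18535 beside BRC1 fell with all libraries (-0.56 and -0.41 on the log2 scale), but these calls were lost in 8 of 19 settings each, LSH10 without any 1 WT library, mta 2 or mta 3 (adjusted p of 0.0522 to 0.112) and AT3G18535 when any library but WT 1 or mta 3 was left out (0.0512 to 0.105).

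The gene profiles most like that of CCD8 were sought among 17503 tested genes with a mean of at least 5. Likeness was the root mean square distance, over the 8 libraries, between log2 values centred on each gene's own mean, so it mainly reflects the difference between the genotypes. The nearest were PP2-B13 (distance 0.13 on the log2 scale), the uncharacterised AT5G05250 (0.17), ALDH2B7 (0.19), ADS1 (0.21) and LEA4-5 (0.24). Chosen for this likeness, each was also lower in all 4 mta libraries than in any WT library, which is no separate result. PP2-B13 was at 114.9 to 143.5 in WT and 28.0 to 36.0 in mta. ADS1, at 1.57 to 2.15 in mta, was close to the lower limit of the files there. SMXL8 ranked 13th by distance from CCD8 (0.31), but CCD8 ranked 126th from SMXL8. Searched in the same way after its value was seen, SMXL8 had AT5G64190 as its nearest gene (0.10), at 74.0 to 86.2 in WT and 27.2 to 31.0 in mta.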

How the data were processed

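Poly(A) RNA of 4 WT and 4 mta leaf libraries was grouped by the sample titles. Per the submitters' processing notes, STAR 2.4.0, HTSeq and DESeq2 were used and the build was TAIR10; order and settings are not given in the sources used here. The deposited files hold a signal per gene. In every library the low values were evenly spaced, each a whole number of steps (tolerance 0.02 of a step, besides rounding), as if the authors had divided read counts by 1 factor per library, and values below 1 are not listed. The steps were not used as counts. Unlisted genes were set to 0. The filter required 4 or more libraries with a value of 3 or more, which left 18328 of 20690 genes, and CCD7 did not pass this filter. Library factors came from the trimmed mean of M values method (trims of 0.3 and 0.05) on the remaining genes, and log2(value + 1) was fitted with limma 3.58.1 (R 4.3.3, mean-variance trend, genotype as the only term). P-values were adjusted over all tested genes by the Benjamini-Hochberg method at 0.05. A fold change on this scale understates changes of low genes. The fit was tested on simulated data. Rows without a gene held 4.92 to 5.97% (no feature), 0.359 to 0.406% (ambiguous) and 6.06 to 9.07% (several alignments) of a library's total and were left out.

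Symbols, annotations, longest transcript lengths and promoter sequences came from RefSeq TAIR10.1, whose locus tags matched 20582 of 20690 identifiers. The deposited files carry no coordinates, so all coordinates are those of that assembly. Named genes are the 10 members, MTA and the 5 genes most like CCD8. In each list they are up to 4 genes with the smallest adjusted p past the threshold, or the smallest where none passed. Others serve as background or were named after their values were seen. The members and lists were chosen with earlier results of these data known. Alternatives covered scaling, filter, pseudocount, a replicate block, array weights, a transcript length correction (loess span 0.5) and the removal or merging of libraries. Figures were drawn with matplotlib 3.10.9.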

Additional observations from a re-analysis of the deposited data

Results flagged for a closer look

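In 7 of 110 groups of 4 libraries, over the members and list genes tested, 1 library stood apart from the other 3 by more than Dixon's 95% critical value for the gap divided by the range. Chance alone flags about 1 in 20 groups. Among the members, D14 in WT 1 (286.8, with the next library at 214.3) and SMXL6 in mta 4 (174.0, with the next at 140.5) were the highest of their genotype. Among the list genes, mta 4 was the lowest mta library for KUF1 (168.1) and the highest for TPR4 (290.5) and LUT5 (300.5). ASK2 was highest in WT 1 (616.1 of the WT libraries), and VDE was lowest in WT 4 (655.2). WT 1 and mta 4 also had trends along transcript length of -0.35 and 0.36 (Spearman's rho), and their part in these values was not tested.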

How the results depend on the processing

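TCP1, NCED3, CCD1, PDS, ZEP, ASK2, MYB75, CXE20, AT4G36470 and AT1G64680 kept their direction and stayed past the threshold in all 19 alternatives. Without single libraries, members lower numbered 2 to 4 and members higher 0 to 2 (most without mta 4), modifying enzyme and D27-annotated genes lower 1 to 2, karrikin branch genes lower 0 to 1 and higher 0 to 1, SCF and co-repressor genes lower 1 to 3, carotenoid genes lower 2 to 6 and higher 0 to 2, and all genes called 3194 (without mta 2) to 6513 (without mta 4), against 4818. Members higher numbered 2 with upper-quartile factors, and 1 with a minimum of 10, with a pseudocount of 4, with the replicate block and with the length correction, D14 being that gene. As above, nothing is read from the member counts, since the members were chosen with this contrast known. With array weights 4 members were lower and 3 higher, 3 karrikin branch genes were lower and 1 higher, 5 SCF and co-repressor genes were lower and 9663 genes were called. Without WT 1, mta 1 and mta 4 these counts were 4, 3, 2, 1, 4 and 8289, in a fit where the transcript length trend went with genotype. With the authors' scaling 3 karrikin branch genes were lower, 8 carotenoid genes were lower and 0 higher. With upper-quartile factors 1 SCF gene and 2 carotenoid genes were lower. Without a filter 1 further dioxygenase gene, NCED9, was higher. With the length correction 1 karrikin branch gene was lower and 1 carotenoid gene higher. With WT 2 and WT 3 averaged, 1 gene of the modifying enzyme and D27-annotated list, 1 SCF gene and 2 carotenoid genes were lower and 0 carotenoid genes higher. The cause was not tested. The replicate block gave 2 carotenoid genes lower and 1 higher. Same-numbered deviations correlated at 0.47, 0.08, -0.20 and -0.35, which gave no consistent sign of pairing by replicate number. The deviations may also carry the trend along transcript length, so they cannot decide whether same-numbered libraries were handled together. The planned count tests (edgeR, DESeq2) were not run, as the values are not counts.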
